A study of Drosophila melanogaster with 9 samples.

Results

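The nuclear genes of the mitochondrial respiratory complexes were followed in developing fly eyes that overexpressed the transcriptional regulator Bonus (Bon), with and without knockdown of yki, which encodes the transcriptional coactivator of the Hippo pathway. Members were the protein-coding genes whose symbol begins with ND-, SdhA to SdhD, UQCR-, COX and a digit, or ATPsyn, and 87 of the 17558 genes in the count tables qualified. The deposited tables carry older names for most of them, so a gene counted as a member when its deposited name or the current symbol of its gene identifier matched. By the deposited name alone 8 genes match. By symbol 40 of the 87 genes were assigned to complex I, 7 to complex II, 9 to complex III, 16 to complex IV and 15 to complex V. Of the 87 genes 24 carry an L (like) after the parent's name, which marks a duplicate of a subunit gene.

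The respiratory chain of the inner mitochondrial membrane passes electrons from NADH (complex I) and succinate (complex II, which is also the succinate dehydrogenase of the citric acid cycle) through complex III and cytochrome c to oxygen at complex IV. The proton gradient made on the way drives ATP synthase, complex V. Nearly all subunits are encoded in the nucleus, a small core set on the mitochondrial chromosome, and in flies many duplicate genes are known from the testis. Photoreceptor neurons are known as cells of high energy demand.

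RNA was sequenced from dissected pupal eyes of Drosophila melanogaster in 3 genotypes with 3 libraries each. The pupae were staged at 25 °C and taken 40 to 41 hours after puparium formation, the stage at which, per the series' design text, hairs typical of epidermis start to form in Bon-overexpressing eyes. Bon+yki-RNAi eyes carried UAS-bon-mCherry over +, with UAS-yki-RNAi (stock BDSC #34067) opposite the pGMR-GAL4 driver. Bon eyes carried UAS-bon-mCherry over + and pGMR-GAL4 over +. Control eyes, called mCherry, carried UAS-mCherry (stock BDSC #35787) over pGMR-GAL4, so all 3 genotypes had the driver and an mCherry protein or fusion. pGMR-GAL4 drives in the differentiating eye. For each genotype 60 eyes were combined and 100 ng of RNA went into library preparation, so a library averages over many animals and all cell types of the dissected tissue. The labels do not say whether each library had its own pool of eyes. Fewer cells of a type and less RNA per cell cannot be told apart in such samples.

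The libraries held 37137136 to 39690537 counts in Bon+yki-RNAi eyes, 38754394 to 48485542 in Bon eyes and 34926438 to 48524961 in mCherry eyes. The members took 0.667% to 0.686% of the counts of a library in Bon+yki-RNAi eyes, 0.674% to 0.690% in Bon eyes and 0.631% to 0.659% in mCherry eyes. Levels are given in CPM, counts scaled to a common library total after adjustment of the totals by TMM, the trimmed mean of M-values. The manipulated genes matched the labels: bon had 4125 to 4219 CPM in Bon+yki-RNAi eyes and 4695 to 5193 in Bon eyes, against 170.4 to 176 in mCherry eyes. Likewise yki had 28.9 to 29.3 CPM in Bon+yki-RNAi eyes, against 62.3 to 62.9 in Bon eyes and 60.0 to 62.7 in mCherry eyes. The gene bon was itself lower in Bon+yki-RNAi eyes than in Bon eyes (log2 fold change -0.26 ± 0.03, SE; adjusted p = 6.14e-05, edgeR). No group carried yki-RNAi without Bon overexpression, so knockdown of yki and the lower bon level cannot be told apart in that comparison. Markers of cell types moved with the groups as well. The summed CPM of 11 photoreceptor markers was 2102 to 2132 in Bon+yki-RNAi eyes, 2163 to 2222 in Bon eyes and 2796 to 2879 in mCherry eyes. Among them the rhodopsin genes, defining for mature photoreceptors, were near 0 in all genotypes, with at most 0.0970 CPM for ninaE, 0.386 for Rh4 and 0.977 for Rh6 in any library, while elav, a marker of neurons, had 361 to 451 CPM. The summed CPM of 10 muscle markers was 629 to 666 in Bon+yki-RNAi eyes, 522 to 597 in Bon eyes and 973 to 1104 in mCherry eyes, of which sls alone had 596 to 624, 493 to 559 and 948 to 1080. Of the 10 muscle markers 1 was called higher (Mef2) and 1 lower (sls) in Bon eyes against mCherry eyes, with a median log2 fold change of 0.08. For 10 glial markers the sum was 1599.97 to 1643 CPM in Bon+yki-RNAi eyes, 1566 to 1627 in Bon eyes and 1797 to 1812 in mCherry eyes. In that order of groups it was 1549 to 1618, 1620.4 to 1691 and 1789.5 to 1867 for 10 hemocyte markers. It was 672 to 678, 581 to 598 and 490.2 to 549 for 10 genes listed as markers of brain and optic lobe neurons. For 10 fat body markers it was 85.2 to 91.8, 104 to 115 and 50.6 to 74.2, of which Yp3 had 34.7 to 38.9, 60.9 to 73.9 and 6.83 to 8.67. Of the 9 fat body markers tested in Bon eyes against mCherry eyes, 1 was called higher (Yp3) and 1 lower (Lsp1gamma), with a median log2 fold change of -0.14. In the same comparison 3 photoreceptor markers were called higher and 5 lower of 10 tested, and 1 glial marker higher and 4 lower of 9. Of 9 hemocyte markers 0 were higher and 3 lower, and of 8 tested genes of the brain and optic lobe list 4 were higher and 0 lower. Of all tested genes 25.2% were higher and 27.2% lower there. The brain and optic lobe list holds bsh, toy, ap, hth, scro, Lim1, tll, ey, dac and eve. Whether these genes are also expressed in cells of the eye was not examined, so their sum is not a measure of brain tissue. In Bon+yki-RNAi eyes against Bon eyes 3 photoreceptor markers were higher and 2 lower of 10 tested, and 3 glial markers higher and 1 lower of 9. The calls were 0 higher and 4 lower of 9 hemocyte markers, and 5 higher and 0 lower of 8 genes of the brain and optic lobe list. They were 2 higher and 0 lower of 10 muscle markers, and 1 higher and 1 lower of 9 fat body markers. The shares of all tested genes were 11.3% higher and 16.3% lower. Of 16 testis markers 10 had at most 3 counts in every library. The part of these cell types in the values of the members was not tested.

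The members span a wide range of levels, and most of that range separates subunit genes from their duplicates. Per kilobase of transcript in mCherry eyes, ATPsynC, the subunit of the rotor ring of ATP synthase, stood highest at 623 CPM per kilobase. COX7A, a small structural subunit of cytochrome c oxidase, followed at 341 and ATPsynbeta, the catalytic subunit of ATP synthase, at 325. Without the duplicates, the median per-kilobase level was 45.4 CPM per kilobase for 34 genes of complex I, 64.7 for 4 of complex II, 45.0 for 6 of complex III, 112 for 8 of complex IV and 127 for 11 of complex V. Among these genes the highest of complex I was ND-MLRQ at 115 CPM per kilobase, that of complex II was SdhB at 76.3 and that of complex III was UQCR-C1 at 111. ND-MLRQ, the counterpart of NDUFA4, was placed in complex I by its symbol alone. ND-MLRQ had 63.1, 63.5 and 60.4 CPM in Bon+yki-RNAi eyes, 63.7, 59.8 and 64.4 in Bon eyes and 60.3, 65.8 and 58.8 in mCherry eyes, which overlap throughout. ND-B8 was the one subunit gene outside the duplicates near the floor, at 0.283 CPM per kilobase.

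**Figure D1:**
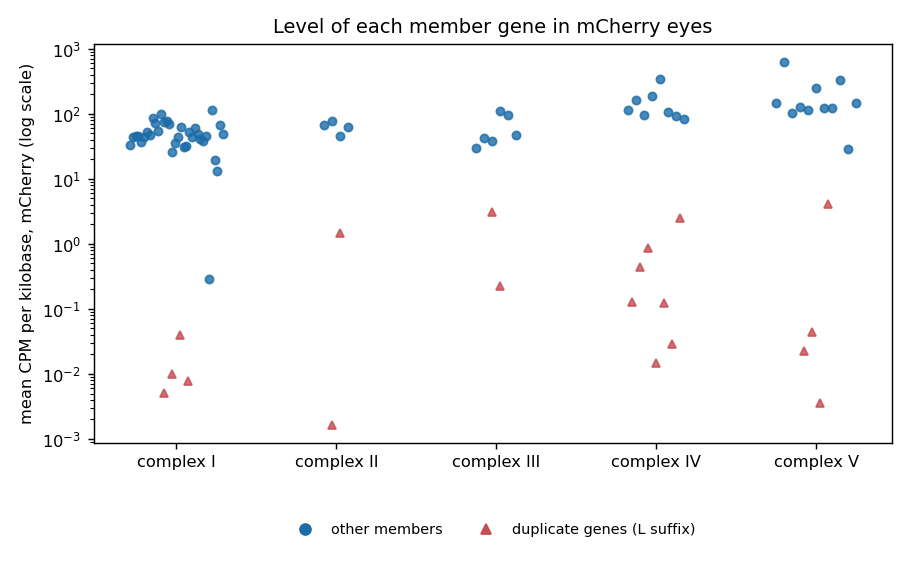
Mean level of each member gene in the 3 mCherry libraries, in CPM per kilobase on a log scale, by complex; circles are subunit genes and triangles are duplicate genes, and genes with a mean of 0 are not drawn. Every triangle lies below every circle other than ND-B8 of complex I, and ATPsynC is the highest circle at 623.

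Of the 24 duplicates, 11 had at most 3 counts in every library and 2 of these, ND-B14.5AL and UQCR-14L, had none. The filter on low counts kept 68 of the 87 members, 6 of them duplicates: SdhBL, UQCR-11L, COX5BL, COX6AL2, COX7CL and ATPsynepsilonL. The other 19 members, 18 duplicates and ND-B8, were too low to test. COX5BL and COX7CL lie 122 and 281 bases from their parents COX5B and COX7C. All exons of COX5BL overlap another gene, and 67.0% of the exon bases of COX6AL2 are shared with a gene on the same strand. Counts of these 3 duplicates are therefore uncertain. Some subunit genes share exon bases to a like extent, and their counts are uncertain too. All exon bases of ND-MNLL are shared with a gene on the same strand, and all of UQCR-14 with a gene on the other strand. ATPsyndelta shares 35.6% with a gene on the other strand. ND-MNLL and ATPsyndelta are among the members called higher in Bon eyes against mCherry eyes below.

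With Bon overexpression, more of the tested members rose than fell, by small amounts. In Bon eyes against mCherry eyes 24 of the 68 were higher at an adjusted p under 0.05 (35.3%, where 25.2% of all 11068 tested genes were higher) and 6 were lower (8.82%, where 27.2% of all were lower). Sizes were slight: the median log2 fold change was 0.06 over the 68 members and -0.00149 over all tested genes. The median size among the called members was 0.14, and 6 called members changed by more than 0.2 on the log2 scale. The 3 libraries of Bon lay wholly above the 3 of mCherry for 28 members (all tested genes, 28.7%) and wholly below for 7 (29.9%). Tests here and below are edgeR's quasi-likelihood test with Benjamini-Hochberg adjustment over all tested genes. All 24 members called higher were called under each of 4 scalings, and upper-quartile scaling gave 39 higher and 3 lower. Of the 6 lower members, ND-15, ND-30 and COX7A were called under all 4. In the authors' deposited table of this comparison, 18 of the 69 members listed were higher (18.6% of the table) and 5 lower (21.3%), and all of these were called in the same direction here.

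With yki knocked down in Bon eyes, where bon was lower too, no member was called higher and many were slightly lower. In Bon+yki-RNAi eyes against Bon eyes 0 of the 68 were higher (0 also at an unadjusted p under 0.05 with edgeR, and 0 with DESeq2), where 11.3% of all tested genes were higher, and 28 were lower (41.2%, where 16.3% of all were lower). The log2 fold change was below 0 for 65 of the 68, with a median of -0.10 over the members and -0.00876 over all tested genes, and no called member reached a size of 0.2. Across the 4 scalings 16 members changed sign. The values of single libraries are scaled by TMM (the trimmed mean of M-values, the scaling used throughout), as are the statements on overlap drawn from them. All 3 libraries of Bon+yki-RNAi lay below all 3 of Bon for 46 members (all tested genes, 24.8%) and above them for 0 (19.5%). The number of calls depended on the processing: 14 were lower with DESeq2, 15 with upper-quartile scaling and 5 with library totals alone. Leaving out libraries gave 14 without Bon+yki-RNAi replicate 1, 18 without Bon+yki-RNAi replicate 3 and 15 without Bon replicate 1. The median stayed below 0 under each of these, at its nearest -0.04 with library totals. The 5 called under all 4 scalings were ND-30, ND-39, ATPsynD, ATPsynF and ATPsyngamma. The authors' deposited table of this comparison lists 69 members with 0 higher (11.3% of the table) and 13 lower (11.5%), and the 13 were called lower here too.

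Between Bon+yki-RNAi eyes and mCherry eyes the balance of the members depended on the scaling. With the scaling used throughout, 7 of the 68 were higher (10.3%, where 25.1% of all tested genes were higher) and 18 lower (26.5%, where 29.4% of all were lower), with a median log2 fold change of -0.04 over the members and -0.00030 over all tested genes. The libraries did not overlap for 10 members that were higher (all tested genes, 29.2%) and 19 that were lower (32.6%). The sign of the median turned with the scaling. It was 0.05 with 23 higher and 5 lower under upper-quartile scaling, and 0.07 with 26 higher and 3 lower with library totals, which moved the median of all tested genes to 0.11. Without mCherry replicate 2, 11 were lower. All 7 higher members and 3 of the lower ones, ND-15, ND-30 and COX7A, were called under each scaling. The 3 comparisons share libraries, so their values are given side by side and are not independent of each other.

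**Figure D2:**
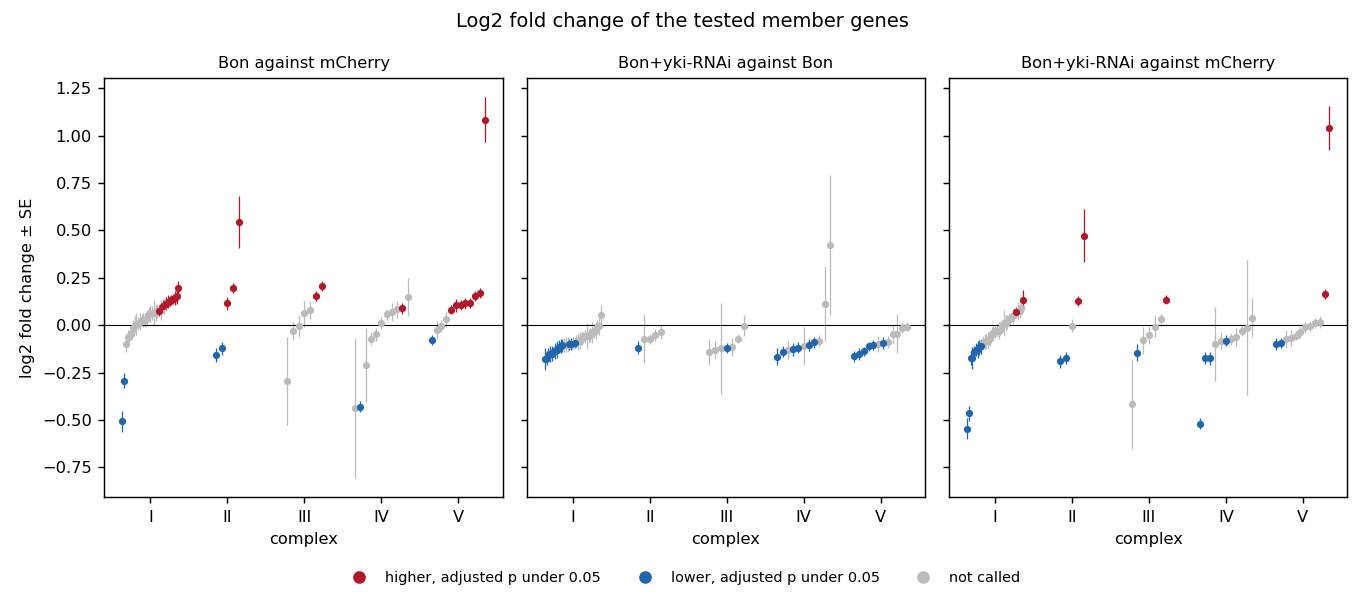
Log2 fold change with its standard error (SE) for the 68 tested members, by complex, for Bon against mCherry, Bon+yki-RNAi against Bon and Bon+yki-RNAi against mCherry; red and blue points passed an adjusted p of 0.05 as higher and lower. In the middle panel 28 points are blue and none is red.

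Complex I oxidises NADH, and its members include the core subunits that carry the catalysis and accessory subunits around them. In Bon eyes against mCherry eyes 10 of the 33 tested members were higher and 2 lower (of all tested genes 25.2% were higher and 27.2% lower), made up of 4 higher and 1 lower of 7 core subunits and 6 higher and 1 lower of 26 accessory subunits. In Bon+yki-RNAi eyes against Bon eyes 0 were higher and 14 lower, of which 3 were core and 11 accessory (11.3% and 16.3% of all tested genes were higher and lower). Both counts moved with the scaling. Upper-quartile scaling gave 21 higher in the first comparison and 5 lower in the second, and library totals gave 16 and 2. Against mCherry eyes the Bon+yki-RNAi eyes had 2 higher and 9 lower, but 12 higher and 2 lower under upper-quartile scaling.

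ND-15, the counterpart of the human accessory subunit NDUFS5 (FBgn0031228, chromosome 2L, 114726 to 156030, plus strand), had 33.1, 38.8 and 34.6 CPM in Bon+yki-RNAi eyes, 36.3, 35.1 and 38.1 in Bon eyes and 51.7, 54.4 and 49.1 in mCherry eyes. Both Bon genotypes lay below all mCherry libraries and overlapped each other. Its log2 fold change was -0.51 ± 0.06 (SE; adjusted p = 5.13e-06, edgeR) in Bon eyes and -0.55 ± 0.06 (adjusted p = 2.56e-06) in Bon+yki-RNAi eyes against mCherry eyes. Between the Bon genotypes it was -0.04 ± 0.06 (adjusted p = 0.68). Of its exon bases 15.7% are shared with Pus10 on the other strand.

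ND-30, the counterpart of the core subunit NDUFS3 in the part of complex I that reduces ubiquinone (FBgn0266582, chromosome 3L, 3158485 to 3159578, minus strand), was graded over the genotypes. It had 58.8, 63.6 and 62.2 CPM in Bon+yki-RNAi eyes, 72.5, 66.4 and 69.0 in Bon eyes and 84.2, 87.3 and 82.9 in mCherry eyes, and no pair of groups overlapped. The log2 fold change was -0.29 ± 0.04 (SE; adjusted p = 1.52e-05, edgeR) in Bon eyes against mCherry eyes and -0.17 ± 0.04 (adjusted p = 0.00422) in Bon+yki-RNAi eyes against Bon eyes. It shares no exon base with another gene of the tables. ND-20 and ND-23, core subunits of the same part, were called higher in Bon eyes than in mCherry eyes.

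Several members of complex I stood highest in Bon eyes. ND-39, the counterpart of the accessory subunit NDUFA9, had 116, 113 and 118 CPM in Bon+yki-RNAi eyes, 129, 126 and 126 in Bon eyes and 115, 117 and 114 in mCherry eyes. Bon lay above both other genotypes, which overlapped. The log2 fold change was 0.14 ± 0.03 (adjusted p = 0.000371, edgeR) in Bon eyes against mCherry eyes and -0.14 ± 0.03 (adjusted p = 0.00103) in Bon+yki-RNAi eyes against Bon eyes. Bon+yki-RNAi eyes and mCherry eyes differed by 0.00 ± 0.03 (adjusted p = 0.976), but ND-39 was called higher there with upper-quartile scaling (0.09, adjusted p = 0.00586) and with library totals (0.11, adjusted p = 0.00157). ND-51, the counterpart of NDUFV1, the core subunit that takes electrons from NADH, had 126, 126 and 123 CPM in Bon+yki-RNAi eyes, 131, 129 and 133 in Bon eyes and 118, 122 and 117 in mCherry eyes. It was higher in Bon eyes than in mCherry eyes (0.13 ± 0.03 on the log2 scale, adjusted p = 0.000637). Its difference between Bon+yki-RNAi eyes and Bon eyes was not called (-0.06 ± 0.03, adjusted p = 0.0974). ND-51 was called higher in Bon+yki-RNAi eyes than in mCherry eyes (0.07 ± 0.03, adjusted p = 0.034), with adjusted p up to 0.101 under alternative settings. ND-B22, the counterpart of NDUFB9 in the membrane arm, had 42.5, 42.1 and 40.7 CPM in Bon+yki-RNAi eyes, 44.1, 44.9 and 45.6 in Bon eyes and 39.8, 40.5 and 37.04 in mCherry eyes. Its log2 fold change in Bon eyes against mCherry eyes was 0.19 ± 0.04 (adjusted p = 0.00057), and 26.1% of its exon bases are shared with CG31855. The fall of ND-B22 in Bon+yki-RNAi eyes against Bon eyes was not called (-0.10 ± 0.04, adjusted p = 0.0581). ND-AGGG, an accessory subunit of the membrane arm, was called higher in Bon+yki-RNAi eyes against mCherry eyes (0.13 ± 0.05, adjusted p = 0.0472), though its libraries overlap at 20.0 to 22.1 CPM in Bon+yki-RNAi eyes and 18.3 to 20.4 in mCherry eyes. That call ended without any 1 of Bon+yki-RNAi replicates 2 and 3 and mCherry replicates 1 and 3, with adjusted p of 0.0887 to 0.189.

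Complex II divided by subunit. SdhA, the flavoprotein subunit that oxidises succinate, had 205, 197 and 200.2 CPM in Bon+yki-RNAi eyes, 209, 213 and 211 in Bon eyes and 188, 183 and 181 in mCherry eyes. SdhB, the iron-sulfur subunit that binds to it, had 80.7, 85.5 and 81.3 CPM in Bon+yki-RNAi eyes, 87.9, 85.6 and 82.8 in Bon eyes and 90.6, 94.1 and 94.3 in mCherry eyes. On this scale SdhA was above and SdhB below the control in every library of both Bon genotypes. The log2 fold change in Bon eyes against mCherry eyes was 0.20 ± 0.03 (adjusted p = 1.5e-05, edgeR) for SdhA and -0.12 ± 0.03 (adjusted p = 0.00583) for SdhB.

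The membrane anchors of complex II were also split. SdhC had 41.8, 40.3 and 41.1 CPM in Bon+yki-RNAi eyes, 44.8, 43.6 and 45.5 in Bon eyes and 40.3, 42.3 and 40.8 in mCherry eyes, so that Bon stood above both other genotypes. Against mCherry the log2 fold change of Bon was 0.12 ± 0.03 (adjusted p = 0.00982). SdhD had 50.5, 49.3 and 47.2 CPM in Bon+yki-RNAi eyes, 49.8, 49.7 and 51.3 in Bon eyes and 55.2, 58.2 and 54.4 in mCherry eyes. It was lower in Bon eyes than in mCherry eyes (-0.16 ± 0.04, adjusted p = 0.0022). Of the exon bases of SdhB 10.6% are shared with CG15237 on the other strand, and of those of SdhD 13.9% with PTPMT1. The calls of SdhB and SdhD in Bon eyes against mCherry eyes ended under upper-quartile scaling, at -0.05 (adjusted p = 0.167) and -0.09 (adjusted p = 0.0589). That of SdhB also ended with library totals, at -0.07 (adjusted p = 0.0811), and the sign stayed in each case. The fall of SdhC in Bon+yki-RNAi eyes against Bon eyes (-0.12 ± 0.03, adjusted p = 0.0165) did not pass without any 1 of Bon+yki-RNAi replicates 2 and 3 and Bon replicates 1 and 3, with adjusted p of 0.0501 to 0.0827. Nor did it pass with upper-quartile scaling (adjusted p = 0.0538) or library totals (-0.06, adjusted p = 0.1997). The summed level of the complex was 377 ± 4.38 CPM in Bon+yki-RNAi eyes, 395 ± 1.49 in Bon eyes and 377 ± 2.94 in mCherry eyes (SD, n = 3 each), with Bon above both other genotypes, which overlapped. With library totals it was 387 to 397 CPM in Bon+yki-RNAi eyes, 392 to 397 in Bon eyes and 362 to 366 in mCherry eyes, where the Bon genotypes overlap above the control.

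**Figure D3:**
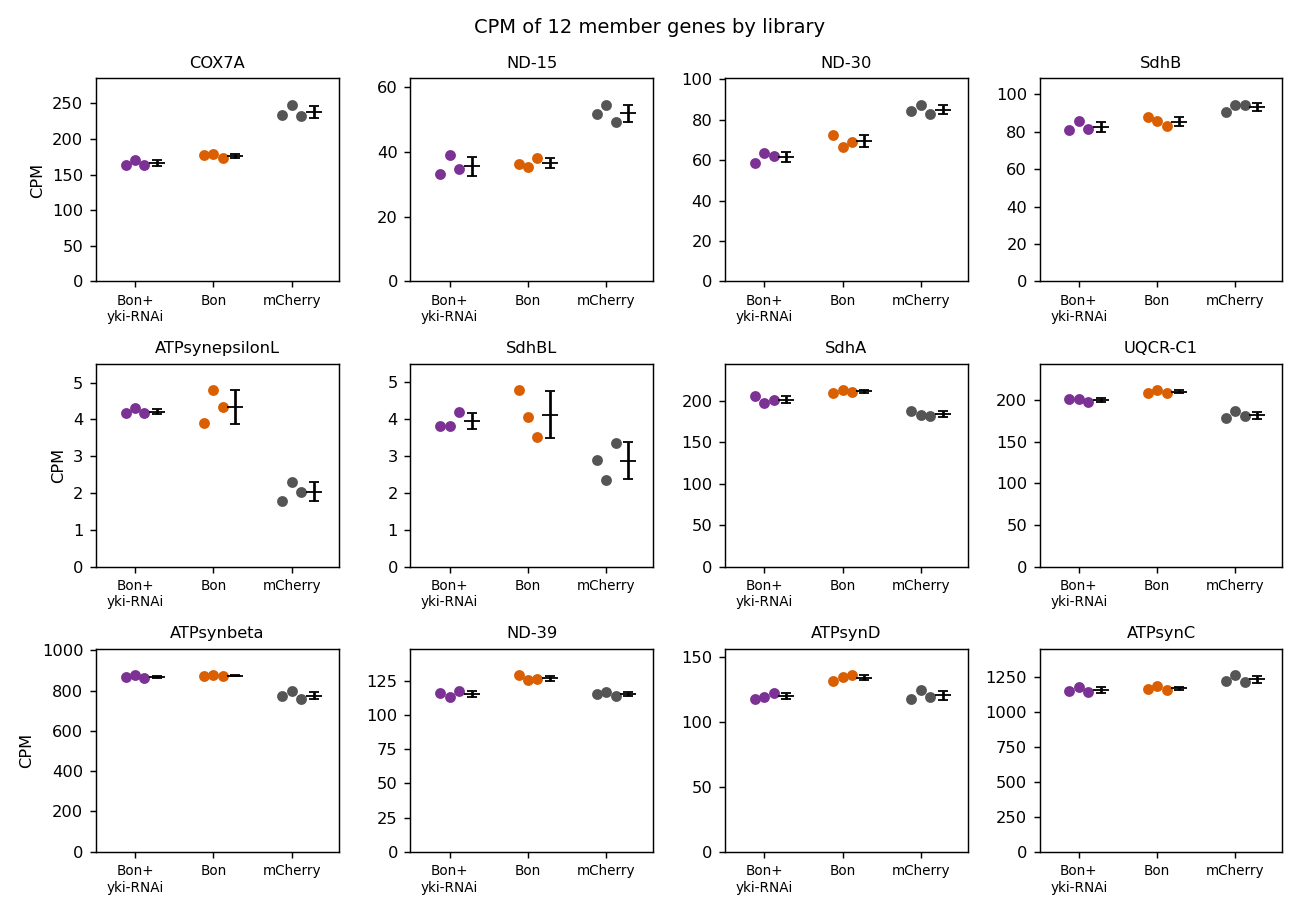
CPM of 12 member genes in each library (points) with the mean and SD of 3 libraries (bars), for Bon+yki-RNAi, Bon and mCherry from left to right, each axis from 0. COX7A, ND-15, ND-30 and SdhB are lower in Bon than in mCherry, SdhA, UQCR-C1 and ATPsynbeta higher, and ND-39 and ATPsynD are highest in Bon.

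Complex III hands electrons from ubiquinol to cytochrome c, and its matrix-facing core proteins were the 2 called members of 7 tested in Bon eyes against mCherry eyes, both higher. These are 28.6% of the 7, near the 25.2% of all tested genes that were higher. UQCR-C1 had 201, 201 and 197 CPM in Bon+yki-RNAi eyes, 209, 212 and 209 in Bon eyes and 178, 186 and 181 in mCherry eyes, and no pair of groups overlapped. Its log2 fold change was 0.21 ± 0.03 (adjusted p = 7.6e-06, edgeR) in Bon eyes and 0.14 ± 0.03 (adjusted p = 0.00038) in Bon+yki-RNAi eyes against mCherry eyes. Between the Bon genotypes it was -0.07 ± 0.03 (adjusted p = 0.0504). UQCR-C2 had 165, 164 and 168 CPM in Bon+yki-RNAi eyes, 177, 183 and 180.3 in Bon eyes and 161, 166 and 159 in mCherry eyes. It differed between the Bon genotypes (-0.12 ± 0.03, adjusted p = 0.0034) and not detectably between Bon+yki-RNAi eyes and mCherry eyes (0.03 ± 0.03, adjusted p = 0.339). Both depended on the scaling. With library totals the first was -0.06 (adjusted p = 0.0705), and the second was called higher at 0.14 (adjusted p = 0.000266), as it was with upper-quartile scaling at 0.12 (adjusted p = 0.000892). UQCR-Q, a small subunit of the membrane domain, was lower at 42.3 ± 2.06 CPM in Bon+yki-RNAi eyes and 46.7 ± 2.36 in mCherry eyes (SD, n = 3 each; -0.14 ± 0.05 on the log2 scale, adjusted p = 0.0169 by edgeR). The nearest libraries were 44.3 and 44.8 CPM, and the call ended without Bon+yki-RNAi replicate 1 (adjusted p = 0.0904) or mCherry replicate 2 (adjusted p = 0.117). It also ended with upper-quartile scaling (-0.05, adjusted p = 0.354) and library totals (-0.03, adjusted p = 0.556).

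Complex IV had 1 member higher and 1 lower of 11 tested in Bon eyes against mCherry eyes, and 0 higher and 6 lower in Bon+yki-RNAi eyes against Bon eyes (4 lower under upper-quartile scaling and 0 with library totals). Of all tested genes 25.2% were higher and 27.2% lower in the first comparison, and 11.3% and 16.3% in the second. The catalytic core of this complex is encoded on the mitochondrial chromosome, and the members are subunits around it. COX7A (FBgn0040529, chromosome 3R, 8339944 to 8341043, minus strand) had 163, 170.4 and 164 CPM in Bon+yki-RNAi eyes, 178, 179 and 173 in Bon eyes and 233, 248 and 232 in mCherry eyes. No pair of groups overlapped. The log2 fold change was -0.43 ± 0.03 (adjusted p = 2.1e-08, edgeR) in Bon eyes against mCherry eyes and -0.09 ± 0.03 (adjusted p = 0.0417) in Bon+yki-RNAi eyes against Bon eyes. The second call ended under each of the 3 other scalings, with adjusted p of 0.0655 to 0.460 and at its smallest -0.03 with library totals. COX7A stood at -0.52 ± 0.03 on the log2 scale (adjusted p = 2.65e-09) in Bon+yki-RNAi eyes against mCherry eyes. Its exons share no base with another gene. The summed level of complex IV was 784 ± 18.3 CPM in Bon+yki-RNAi eyes, 848 ± 9.13 in Bon eyes and 899 ± 29.7 in mCherry eyes (SD, n = 3 each). Without COX7A it was 618 ± 14.4, 672 ± 11.9 and 661 ± 21.4 in the same order, where Bon and mCherry overlap. With library totals the sum with COX7A was 797 to 840.3, 833 to 865 and 840.6 to 897 CPM in that order of groups. There the Bon libraries overlapped those of both other genotypes, so the order of the groups rests on the scaling.

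Against mCherry eyes the other named subunits of complex IV moved less than COX7A. COX5A had 124, 129.5 and 124 CPM in Bon+yki-RNAi eyes, 135, 137 and 138 in Bon eyes and 126, 131 and 128 in mCherry eyes. It was higher in Bon eyes than in mCherry eyes (0.09 ± 0.03 on the log2 scale, adjusted p = 0.0138, edgeR) and lower in Bon+yki-RNAi eyes than in Bon eyes (-0.12 ± 0.03, adjusted p = 0.00528). COX6B had 139.8, 144 and 139 CPM in Bon+yki-RNAi eyes and 153, 154 and 159 in Bon eyes, a log2 fold change of -0.14 ± 0.03 (adjusted p = 0.00285). With library totals the difference from Bon eyes no longer passed for COX5A (-0.06, adjusted p = 0.133) or COX6B (-0.08, adjusted p = 0.0661). COX4 averaged 127 ± 3.74 CPM in Bon+yki-RNAi eyes, 136 ± 3.00 in Bon eyes and 143 ± 5.39 in mCherry eyes (SD, n = 3 each). It was called lower in Bon+yki-RNAi eyes against mCherry eyes (-0.17 ± 0.03, adjusted p = 0.000424), a call that ended with upper-quartile scaling (-0.08, adjusted p = 0.0509) and library totals (-0.06, adjusted p = 0.122).

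Complex V, ATP synthase, had 8 members higher and 1 lower of 12 tested in Bon eyes against mCherry eyes, and 8 were higher under each of the 4 scalings. In Bon+yki-RNAi eyes against Bon eyes 0 were higher and 6 lower, with 5 lower under upper-quartile scaling and 3 with library totals. The shares of all tested genes were 25.2% higher and 27.2% lower in the first comparison, and 11.3% and 16.3% in the second. ATPsynbeta (FBgn0010217, chromosome 4, 1031484 to 1034917, plus strand) had 869, 875 and 864 CPM in Bon+yki-RNAi eyes, 871, 877 and 873 in Bon eyes and 774, 796 and 758 in mCherry eyes. The Bon genotypes overlapped and both lay above the control. The log2 fold change was 0.17 ± 0.03 (adjusted p = 5.04e-05, edgeR) in Bon eyes and 0.16 ± 0.03 (adjusted p = 6.98e-05) in Bon+yki-RNAi eyes against mCherry eyes. Between the Bon genotypes it was -0.01 ± 0.03 (adjusted p = 0.878).

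ATPsynD and ATPsyngamma, unlike ATPsynbeta, were called lower in Bon+yki-RNAi eyes than in Bon eyes. ATPsynD, a subunit of the peripheral stalk, had 118, 119 and 122 CPM in Bon+yki-RNAi eyes, 132, 135 and 136 in Bon eyes and 117, 124 and 119 in mCherry eyes. ATPsyngamma, the central shaft, had 205, 204 and 209 CPM in Bon+yki-RNAi eyes, 224, 227 and 228 in Bon eyes and 210.2, 219 and 212 in mCherry eyes. Both stood highest in Bon eyes with no overlap with either other genotype. In Bon+yki-RNAi eyes against Bon eyes the log2 fold change was -0.16 ± 0.03 (adjusted p = 0.000687, edgeR) for ATPsynD and -0.14 ± 0.03 (adjusted p = 0.000886) for ATPsyngamma. In Bon eyes against mCherry eyes it was 0.15 ± 0.03 (adjusted p = 0.00042) for ATPsynD and 0.08 ± 0.03 (adjusted p = 0.0129) for ATPsyngamma. ATPsynF, a membrane subunit, had 148, 152 and 148 CPM in Bon+yki-RNAi eyes and 166, 166 and 165 in Bon eyes (-0.15 ± 0.03, adjusted p = 0.00159).

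ATPsynC, the most abundant member per kilobase, had 1150.0, 1182 and 1141 CPM in Bon+yki-RNAi eyes, 1163, 1183 and 1159 in Bon eyes and 1224, 1264 and 1212 in mCherry eyes. It was called lower in Bon eyes (-0.08 ± 0.03 on the log2 scale, adjusted p = 0.0236, edgeR) and in Bon+yki-RNAi eyes (-0.09 ± 0.03, adjusted p = 0.00956) than in mCherry eyes. These calls rest on the scaling: with library totals the values were -0.03 (adjusted p = 0.396) and 0.02 (adjusted p = 0.571). The first also did not pass when any 1 library of Bon, mCherry replicate 1 or mCherry replicate 2 was left out, with adjusted p of 0.0547 to 0.109. ATPsynE, a small subunit of the membrane part, averaged 76.0 ± 2.41 CPM in Bon+yki-RNAi eyes and 81.3 ± 2.26 in mCherry eyes (SD, n = 3 each; -0.10 ± 0.03, adjusted p = 0.0183 by edgeR). This difference had the other sign with library totals, at 0.01 (adjusted p = 0.773). It also missed the threshold without any 1 of Bon+yki-RNAi replicates 1 and 3 and mCherry replicates 1 and 2, with adjusted p of 0.051 to 0.0955.

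**Figure D4:**
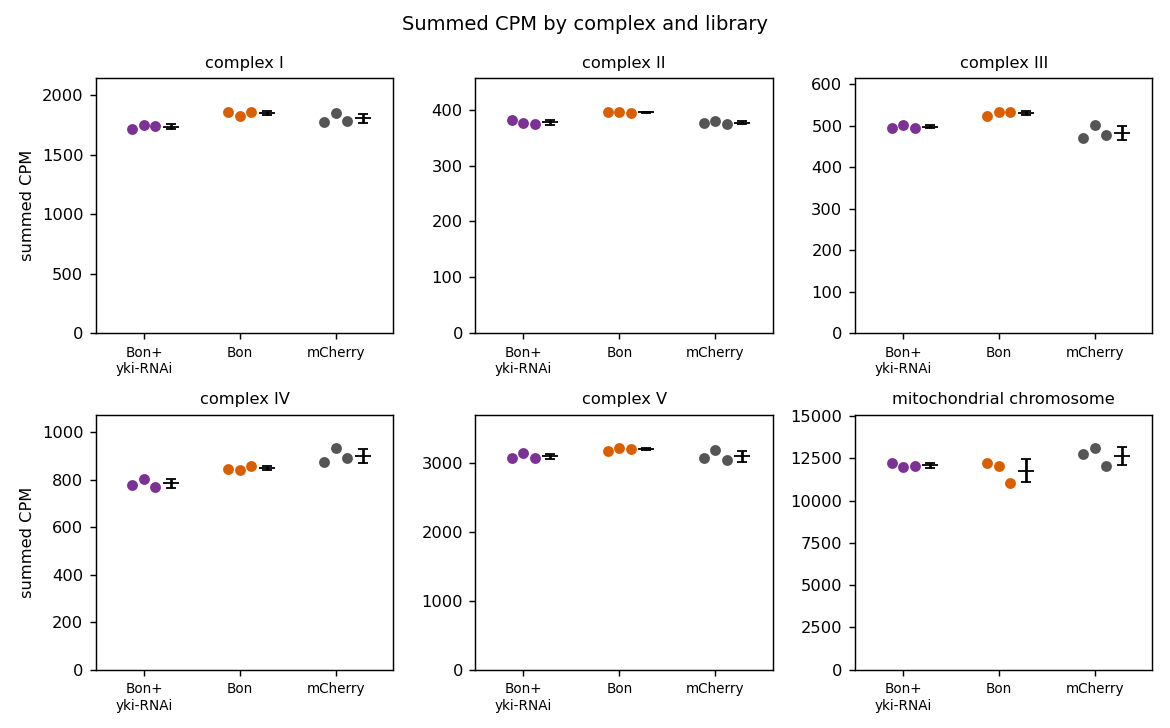
Summed CPM of the members of each complex, and of the 13 protein-coding genes of the mitochondrial chromosome, in each library (points) with mean and SD (bars), each axis from 0. With the TMM scaling drawn here complex III is highest in Bon at 531 CPM and complex IV lowest in Bon+yki-RNAi at 784 CPM.

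By sum, the 87 members held 6486 ± 72.4 CPM in Bon+yki-RNAi eyes, 6819 ± 27.6 in Bon eyes and 6657 ± 164 in mCherry eyes (SD, n = 3 each). The Bon+yki-RNAi libraries lay below the Bon libraries, while mCherry replicate 2 reached 6846 CPM, within the range of Bon. This order rests on the scaling. With plain library totals the sum was 6672 to 6861 in Bon+yki-RNAi eyes and 6742 to 6899.9 in Bon eyes, which overlap, and 6311 to 6589.8 in mCherry eyes, below both. Complex I held 1738 ± 17.1, 1851 ± 18.2 and 1806 ± 39.8 CPM in Bon+yki-RNAi, Bon and mCherry eyes, complex III 498 ± 4.31, 531 ± 5.34 and 483 ± 16.9, and complex V 3089 ± 39.2, 3194 ± 17.1 and 3092 ± 77.7. In these 3 complexes the Bon+yki-RNAi libraries lay below the Bon libraries with the scaling used throughout. With library totals the Bon+yki-RNAi and Bon libraries overlapped in each, in that order at 1786 to 1830.1 and 1812 to 1877 in complex I, 513 to 526 and 523 to 538 in complex III and 3171 to 3273 and 3165 to 3223 in complex V, and the mCherry libraries lay below both. With the scaling used throughout, the mCherry libraries overlapped those of Bon in complex I, those of Bon+yki-RNAi in complex III and those of both in complex V.

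The largest called rises came from 2 duplicate genes with few counts. ATPsynepsilonL (FBgn0051477, chromosome 3R, 10121773 to 10122320, plus strand), a copy of the epsilon subunit gene sun, had 4.17, 4.30 and 4.17 CPM in Bon+yki-RNAi eyes, 3.89, 4.80 and 4.34 in Bon eyes and 1.78, 2.31 and 2.03 in mCherry eyes. Both Bon genotypes lay above the control and overlapped. They had a log2 fold change of 1.08 ± 0.12 (adjusted p = 2.02e-06, edgeR) in Bon eyes and 1.04 ± 0.12 (adjusted p = 3.37e-06) in Bon+yki-RNAi eyes against mCherry eyes. The parent sun averaged 61.3, 67.4 and 64.5 CPM in Bon+yki-RNAi, Bon and mCherry eyes, with a log2 fold change of 0.06 ± 0.04 (adjusted p = 0.226) in Bon eyes against mCherry eyes.

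SdhBL (FBgn0030975, chromosome X, 18894446 to 18896581, plus strand), a copy of SdhB, had 3.82, 3.81 and 4.18 CPM in Bon+yki-RNAi eyes, 4.78, 4.05 and 3.51 in Bon eyes and 2.89, 2.34 and 3.36 in mCherry eyes. The groups are separated by a small gap only, 3.51 against 3.36 CPM for Bon and mCherry. Its log2 fold change was 0.54 ± 0.14 (adjusted p = 0.00404, edgeR) in Bon eyes and 0.47 ± 0.14 (adjusted p = 0.0105) in Bon+yki-RNAi eyes against mCherry eyes, and the call of the second ended without mCherry replicate 2 (0.34, adjusted p = 0.0606). No exon base of these 2 duplicates is shared with another gene. Summed over all 24 duplicates the level was 13.8 to 14.3 CPM in Bon+yki-RNAi eyes, 13.8 to 15.5 in Bon eyes and 10.3 to 11.3 in mCherry eyes.

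**Figure D5:**
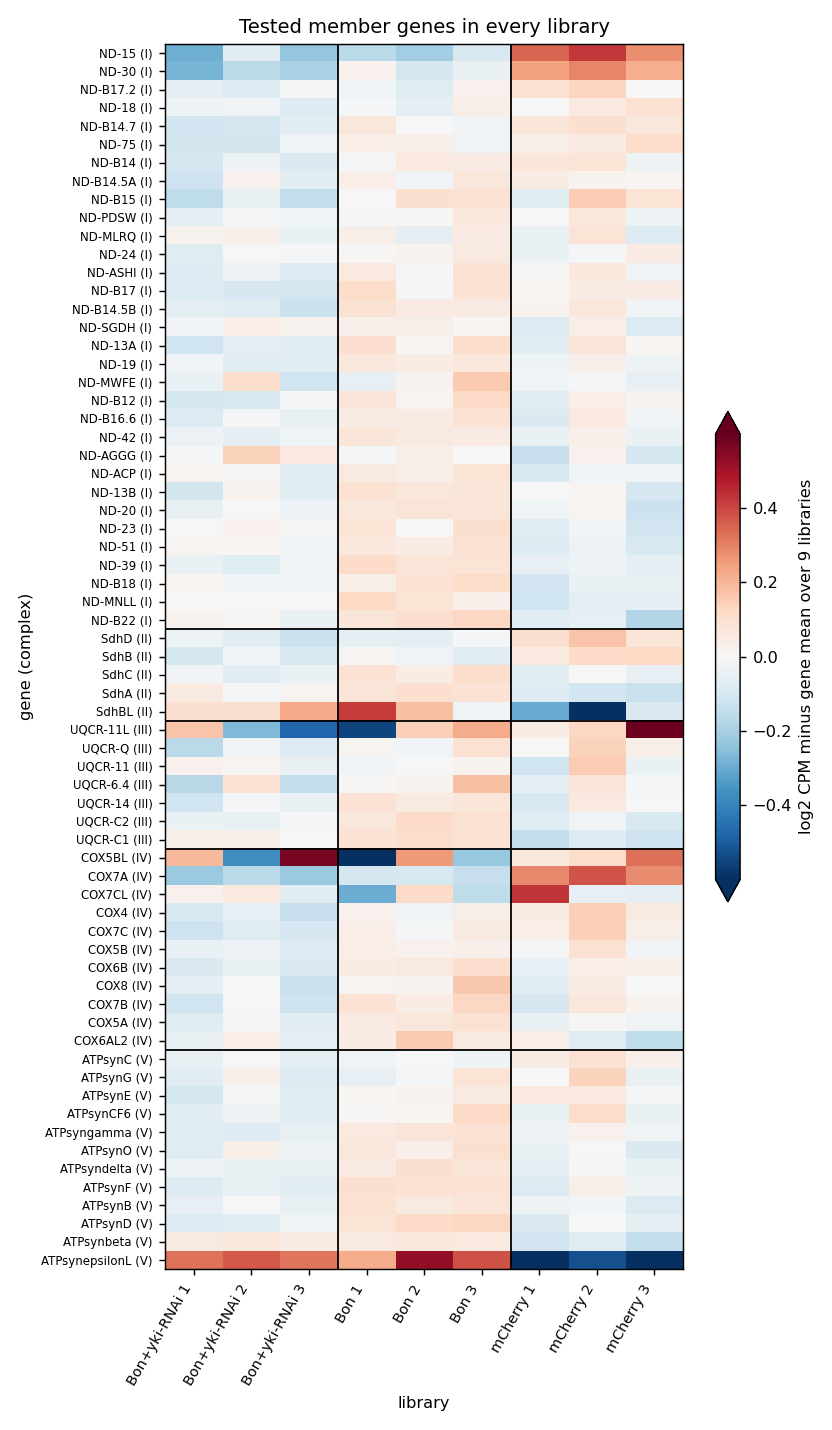
Tested members (all but 1, rows, by complex and by the log2 fold change of Bon against mCherry) in the 9 libraries (columns), as log2 CPM minus the mean of the gene over the libraries, with colours capped at 0.6 either way. ND-15, ND-30 and COX7A are red in the 3 mCherry libraries, ATPsynepsilonL is blue there, and most other members are faintly red in Bon and faintly blue in Bon+yki-RNAi.

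The subunits that the name rule does not reach were read from a list of 9 genes. In Bon eyes against mCherry eyes 2 were higher and 2 lower (25.2% and 27.2% of all tested genes). In Bon+yki-RNAi eyes against Bon eyes 1 was higher and 5 lower (11.3% and 16.3% of all tested genes). The alpha subunit of ATP synthase, blw, averaged 940.3 CPM in Bon+yki-RNAi eyes, 1032 in Bon eyes and 923 in mCherry eyes. It had a log2 fold change of 0.16 ± 0.02 (adjusted p = 4.06e-05, edgeR) in Bon eyes against mCherry eyes and -0.13 ± 0.02 (adjusted p = 0.000575) in Bon+yki-RNAi eyes against Bon eyes. Its partner ATPsynbeta shared the first difference but showed -0.01 ± 0.03 (adjusted p = 0.878) in the other comparison. Cyt-c-d, the cytochrome c gene distinct from the general Cyt-c-p, stood apart from the members in size: it averaged 8.63 CPM in Bon+yki-RNAi eyes, 6.15 in Bon eyes and 32.1 in mCherry eyes. Its log2 fold change was -2.39 ± 0.07 (adjusted p = 1.2e-12) in Bon eyes against mCherry eyes and 0.49 ± 0.08 (adjusted p = 0.00042) in Bon+yki-RNAi eyes against Bon eyes. Cyt-c-p averaged 18.6, 20.2 and 19.3 CPM in Bon+yki-RNAi, Bon and mCherry eyes.

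The 13 protein-coding genes of the mitochondrial chromosome, whose products join these subunits in complexes I, III, IV and V, summed to 12091 ± 131 CPM in Bon+yki-RNAi eyes, 11774 ± 661 in Bon eyes and 12646 ± 524 in mCherry eyes (SD, n = 3 each). In Bon eyes against mCherry eyes 3 of the 13 passed edgeR's test, all lower (27.2% of all tested genes were lower): mt:CoI, mt:CoII and mt:CoIII, the core subunits of complex IV. They had log2 fold changes of -0.11 ± 0.04, -0.16 ± 0.05 and -0.15 ± 0.04 (adjusted p = 0.0216, 0.0225 and 0.00264). None of the 3 passed with upper-quartile scaling, with adjusted p of 0.0539 to 0.331, and with library totals mt:CoIII alone did (-0.10, adjusted p = 0.0237). In Bon+yki-RNAi eyes against Bon eyes the smallest adjusted p of the 13 was 0.153, for mt:ND3, and the median log2 fold change was 0.03. With library totals mt:CoI and mt:CoIII were called higher there (0.12 and 0.11, adjusted p = 0.0183 and 0.0275). The libraries were made with an mRNA isolation step, so the levels of these transcripts are not compared with those of the nuclear genes.

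Genes of neighbouring pathways are read against the shares of all tested genes called, which were 25.2% higher and 27.2% lower in Bon eyes against mCherry eyes and 11.3% and 16.3% in Bon+yki-RNAi eyes against Bon eyes. Of 14 genes of the citric acid cycle and pyruvate dehydrogenase 7 were higher and 3 lower in Bon eyes against mCherry eyes, and 1 was higher and 6 lower in Bon+yki-RNAi eyes against Bon eyes. Idh3b, a subunit of isocitrate dehydrogenase, was higher in Bon eyes than in mCherry eyes (0.27 ± 0.02 on the log2 scale, adjusted p = 2.76e-07, edgeR), and ScsbetaG, a subunit of succinyl-CoA synthetase, was lower (-0.42 ± 0.03, adjusted p = 5.2e-08). Mdh2, malate dehydrogenase, was lower in Bon+yki-RNAi eyes than in Bon eyes (-0.16 ± 0.03, adjusted p = 0.000449). Of 12 glycolytic genes 2 were higher and 8 lower in Bon eyes against mCherry eyes, and the 3 called in Bon+yki-RNAi eyes against Bon eyes were higher. The enolase gene Eno averaged 265.4, 268 and 361 CPM in Bon+yki-RNAi, Bon and mCherry eyes, and the hexokinase Hex-A averaged 68.3, 69.3 and 46.8. Of 73 mitochondrial ribosomal proteins 17 were higher and 8 lower in Bon eyes against mCherry eyes, and the 5 called in Bon+yki-RNAi eyes against Bon eyes were lower.

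Other mitochondrial lists were shorter, and the same shares of all tested genes apply. In Bon eyes against mCherry eyes 3 were higher and 2 lower of 10 assembly factors, 4 and 2 of 11 carriers, channels and antioxidant enzymes, and 4 and 2 of 12 genes of mitochondrial DNA maintenance. They were 3 and 3 of 13 genes of mitochondrial dynamics, and 2 and 1 of 7 transcriptional regulators, yki among them, while 2 of 9 import genes were called, both higher. In Bon+yki-RNAi eyes against Bon eyes the calls were 1 lower assembly factor, 6 lower carriers and enzymes, 1 lower gene of mitochondrial DNA maintenance, 1 higher and 2 lower genes of dynamics, and 1 higher and 1 lower regulator, the lower one being the targeted gene yki itself. The smallest adjusted p of the import genes was 0.150, for Tom20. Catalase, Cat, had the largest change by p among the carriers and enzymes, at 369, 582 and 326 CPM on average in Bon+yki-RNAi, Bon and mCherry eyes. Mul1, a mitochondrial ubiquitin ligase, averaged 11.5, 6.86 and 12.2 CPM in the same genotypes.

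The tested members lie on every large chromosome arm, with 12 tested on 2L, 13 on 2R, 14 on 3L, 14 on 3R, 13 on X and 2 on 4. Of those lower in Bon+yki-RNAi eyes than in Bon eyes, 4 to 7 lay on each of the arms 2L, 2R, 3L, 3R and X. Between Bon and mCherry eyes 9 of the 14 on 3R were higher and 3 lower, against 2 higher and 1 lower of the 13 on 2R. The shares of all tested genes given above (16.3% lower in the first comparison, 25.2% higher and 27.2% lower in the second) apply here too. No test of these arms was made.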

How the data were processed

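Poly(A)-selected RNA of 9 libraries was sequenced as paired 150-base reads, per the labels' protocols. The deposited estimated counts per gene are those of the authors, 39.7% to 42.8% of them not whole, and were rounded before testing. The submitters' processing notes name cutadapt 2.9, Bowtie2 2.3.5.1, STAR 2.7.0e, featureCounts of Subread 1.6.2, DESeq2 1.30.1 and the build BDGP6; their options and the strand setting are not given here, so counts of overlapping genes are uncertain, and 34 members share exon bases with another gene. The authors' deposited comparison tables hold a mean signal, a log2 fold change, a linear fold, p-values and −log10 p-values, per the file headers; only their log2 values and adjusted p-values were used, at the same threshold. Coordinates are those of the deposited tables.

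Counts were tested with edgeR 4.0.16 in R 4.3.3: filterByExpr (minimum count 10), TMM scaling, a robust quasi-likelihood fit over all 9 libraries with group only, and Benjamini-Hochberg adjustment over 11068 genes, threshold 0.05. Standard errors were obtained from each log2 fold change and its quasi-likelihood F. Library totals were 34926438 to 48524961 counts. CPM use TMM-scaled totals (33792586 to 48342413), and levels between genes use the tables' transcript length. A current symbol was found for 17252 of 17558 identifiers. The code was tested on simulated counts. The labels give 3 biological replicates a genotype, and p-values measure the spread among them. Replicate libraries correlated at 0.996 or more across genes and no pair agreed within counting noise. Named were the 2 members with the smallest p that rose and that fell in each complex and comparison, the most abundant member per kilobase of each complex, parents of duplicates, at most 2 genes of each related list, bon and yki. ND-20, ND-23, ND-MNLL, UQCR-14, ATPsyndelta, ATPsynF, mt:CoII and Cyt-c-p fall outside this rule and were chosen after their values were seen. The photoreceptor markers ninaE, Rh4, Rh6 and elav were named for their levels and not by this rule. The genes of the brain and optic lobe list were named to show what it holds. Members, lists and rules were chosen with earlier results of these data known. Alternatives were other scalings, no filter, DESeq2 1.42.0, fits of 2 groups, a replicate block and leaving out each library. The values of 1 member are not reported here, though it stays in the fits and counts.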

Additional observations from a re-analysis of the deposited data

How the results depend on the processing

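In Bon against mCherry, the counts of members higher and lower and their median log2 fold change were 39, 3 and 0.13 with upper-quartile scaling, and the median was 0.11 with library totals. In Bon+yki-RNAi against Bon, the count of members lower was 15 with upper-quartile scaling, 5 with library totals (median -0.040) and 14 with DESeq2. In Bon+yki-RNAi against mCherry, the counts higher and lower and the median were 23, 5 and 0.048 with upper-quartile scaling and 26, 3 and 0.066 with library totals. Scaling shifts every gene of a library alike, and the members' median minus that of all genes kept its sign in each comparison. The difference of ATPsynC and of ATPsynE in Bon+yki-RNAi against mCherry turned to 0.018 and 0.012 with library totals.

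Leaving out 1 library gave 21 to 30 higher, 5 to 7 lower and a median of 0.05 to 0.10 in Bon against mCherry, 0 to 0 higher, 14 to 24 lower and a median of -0.10 to -0.09 in Bon+yki-RNAi against Bon, and 5 to 9 higher, 11 to 18 lower and a median of -0.06 to -0.01 in Bon+yki-RNAi against mCherry. The cause was not tested.

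Some alternatives were chosen after seeing the data, among them the summed levels with library totals given beside the sums. Others use fewer genes. With the names of the deposited tables alone, 6 were higher and 1 lower (median 0.12) in Bon against mCherry, 4 lower in Bon+yki-RNAi against Bon, and 2 higher and 1 lower in Bon+yki-RNAi against mCherry. With members that share no exon base, 14 were higher and 2 lower, 18 lower, and 4 higher and 10 lower in these comparisons. Leaving out the duplicates, or computing the scaling without the members, moved no count by more than 1.5 times.

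A replicate block gave 24 higher and 6 lower in Bon against mCherry, 0 higher and 34 lower in Bon+yki-RNAi against Bon and 8 higher and 18 lower in Bon+yki-RNAi against mCherry. The labels do not say whether a shared number pairs libraries. Deviations of same-numbered libraries correlated at -0.0149 to 0.183, and those of differently numbered libraries of different groups at -0.127 to 0.0764.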
